A study of Mus musculus with 18 samples.

Results

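Ly6a, Ly6c1, Ly6c2 and Ly6e encode small surface proteins of the mouse Ly6 family, and their RNA was followed here in MC38 liver metastases grown under different diets or with a Yap hairpin. The 4 genes were taken by symbol from the deposited gene tables, which together list 25005 genes. They were picked with their differences between high-fat and low-fat diet tumours already known, so those differences are given as a description, with no test. MC38 is a mouse colon carcinoma cell line, and the tumour cells reached the liver of wild-type mice from an injection into the spleen. The groups were HFD (n = 5), metastases from mice on a high-fat diet, and LFD (n = 5), metastases from mice on a low-fat diet, which share 1 table. The groups shYap (n = 4) and shCon (n = 4) share another table: both were metastases of MC38 cells with a hairpin, against Yap or a control, and both came from mice on the high-fat diet. The labels give no age, sex, diet length, number of clones per hairpin or statement that libraries came from separate animals, so a p-value here measures only the spread between these libraries.

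Ly6 proteins fold into a compact disulphide-bonded domain and are held on the outer face of the plasma membrane by a glycosylphosphatidylinositol (GPI) lipid anchor. Ly6a, better known as stem cell antigen Sca-1, marks mouse haematopoietic stem cells, activated lymphocytes and several stromal cells, and interferons induce it. Ly6c1 and Ly6c2 encode the near-identical Ly6C antigens, which are used to sort mouse monocytes and are also found on memory T cells and endothelium. Ly6e is expressed much more widely, is induced by interferons as well, and is known for its effects on virus entry.

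All 4 genes lie in the Ly6 cluster on chromosome 15 (GRCm38 coordinates, GENCODE M21 annotation). Ly6e (ENSMUSG00000022587.14) spans 74955051 to 74959905 on the plus strand. Ly6a (ENSMUSG00000075602.10) spans 74994877 to 74998031, Ly6c1 (ENSMUSG00000079018.10) 75044018 to 75048830 and Ly6c2 (ENSMUSG00000022584.14) 75108158 to 75111970, all on the minus strand. From the start of Ly6e to the end of Ly6c2 the 4 genes occupy 157 kb.

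How alike the members are decides how reads can be shared out among them. The coding sequences of Ly6c1 and Ly6c2 are both 393 bases long and differ at 9 bases, an identity of 97.7%. Ly6a is 81.8% identical to Ly6c1 and 81.6% identical to Ly6c2, whereas Ly6e is 53.5% identical to Ly6a and no closer to the Ly6c genes. Both stretches below hold the bases that tell the Ly6c genes apart. Capitals mark the differing bases, positions count from 1 at the first base of the start codon, and each line reads 5′ to 3′ on the coding (minus) strand.
Ly6c1 coding bases 1 to 120, joined across an intron within chr15:75047420-75048511: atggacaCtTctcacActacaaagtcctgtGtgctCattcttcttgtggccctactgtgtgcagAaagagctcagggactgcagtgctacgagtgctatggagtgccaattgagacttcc
Ly6c2 coding bases 1 to 120, joined across an intron within chr15:75110578-75111667: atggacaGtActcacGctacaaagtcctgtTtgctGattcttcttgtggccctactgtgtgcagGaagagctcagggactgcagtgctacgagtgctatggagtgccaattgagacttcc
Ly6c1 coding bases 241 to 390, chr15:75045408-75045557: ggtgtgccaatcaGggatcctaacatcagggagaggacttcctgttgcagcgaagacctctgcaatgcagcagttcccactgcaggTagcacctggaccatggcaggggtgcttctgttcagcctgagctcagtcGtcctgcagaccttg
Ly6c2 coding bases 241 to 390, chr15:75108549-75108698: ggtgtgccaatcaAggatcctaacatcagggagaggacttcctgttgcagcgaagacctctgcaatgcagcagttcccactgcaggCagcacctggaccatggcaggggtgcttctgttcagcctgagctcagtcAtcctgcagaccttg

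Of the 9 differences, 6 fall in bases 1 to 120 and 3 in bases 241 to 390. The longest coding run with no difference is 188 bases, so a read inside it fits both genes equally. Over whole transcripts, 63.3% of 50-base windows of Ly6c1 and 67.0% of those of Ly6c2 occurred in no other transcript, against 91.9% for Ly6a and 100% for Ly6e. With 150-base windows these shares were 94.4% for Ly6c1 and 94.2% for Ly6c2. The sources used here do not give the read length.

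The deposited numbers carry the trace of that sharing. Neither Ly6c1 nor Ly6c2 had an estimated count within 0.05 of a whole number in any of the 18 libraries. Their sum was within 0.05 of a whole number in 17 of 18 libraries, and HFD replicate 4 was the exception, 0.464 away. Ly6a alone was whole in 13 of 18 libraries and Ly6e in 3 of 18. The Ly6c1 and Ly6c2 values are read here as an estimated division of a common pool of reads, and differences between groups and correlations are given for the sum as well. The likeness lists and the levels per length are for each gene as deposited, and rest on that division.

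Library totals were 17766207 to 18474191 estimated counts in the HFD and LFD table and 17207214 to 21309950 in the shYap and shCon table. All 4 members passed the filter on low counts in both tables. Levels are CPM, counts set to a common library size by TMM scaling within a table, and levels in different tables were scaled separately and are not tested against each other. Yap1, the hairpin target, was at 70.5 to 81.4 CPM in the libraries labelled shYap and 73.8 to 82.4 CPM in the shCon libraries, so the knockdown is not visible in the RNA of these tumours. Albumin RNA (Alb), from hepatocytes, was at 168 to 1889 CPM in HFD and 5492 to 51494 CPM in LFD tumours, without overlap, and Xist was at 0.0505 to 0.293 CPM in HFD and 72.9 to 135 CPM in LFD tumours. Both separate the diet groups completely, so their part in the diet differences below cannot be told apart from diet and was not tested. In the other table Xist was at 0 to 0.203 CPM in shYap and 0 to 0.100 CPM in shCon libraries. HFD replicates 1 and 2 and HFD replicates 3 and 4 were closer to each other (root mean square log2 difference 0.335 and 0.316) than the other HFD pairs (0.432 to 0.653).

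The diet groups differed most in Ly6c1. Ly6c1 had 102, 134, 208, 183 and 127 CPM in HFD tumours 1 to 5, against 11.6, 20.6, 15.5, 16.2 and 24.1 CPM in LFD tumours 1 to 5. Every HFD tumour was far above every LFD tumour. The means were 151 ± 43.4 CPM in HFD and 17.6 ± 4.83 CPM in LFD tumours (SD, n = 5 each). On the log2 scale the difference was 3.10 ± 0.25 (SE), or 8.58-fold. In the same fit 33 of the 16340 genes tested rose at least as much, and 4.87% had a change at least as large in either direction. In RNA from whole tumour pieces, more cells of a type and more RNA per cell cannot be told apart.

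Ly6a was higher in HFD tumours too, by a smaller factor. Ly6a had 164, 205, 236, 227 and 200 CPM in HFD tumours 1 to 5, against 133, 70.5, 148, 84.9 and 69.4 CPM in LFD tumours 1 to 5. The groups did not overlap, although HFD tumour 1 stood only slightly above LFD tumour 3. The means were 206.5 ± 28.2 CPM in HFD and 101 ± 37.0 CPM in LFD tumours (SD, n = 5 each), a fitted log2 difference of 1.03 ± 0.23 (SE). Ly6a and Ly6c1 were thus the 2 members without overlap between the diets, and both were higher in HFD tumours. Over all genes tested, 30.6% had no overlap, and 15.8% had none with HFD higher. The members were chosen on this contrast, so their count is a description.

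Ly6c2 was lower in most HFD tumours. Ly6c2 had 7.97, 9.29, 16.02, 11.2 and 7.33 CPM in HFD tumours 1 to 5, against 26.9, 14.8, 43.6, 16.2 and 14.2 CPM in LFD tumours 1 to 5. Of the 5 HFD tumours 4 lay below every LFD tumour, and HFD tumour 3 lay inside the LFD range. The means were 10.4 ± 3.49 CPM in HFD and 23.1 ± 12.6 CPM in LFD tumours (SD, n = 5 each), a fitted log2 difference of -1.16 ± 0.35 (SE). The direction was that of Ly6c2 alone: counted as 1 gene, Ly6c1 and Ly6c2 together gave a log2 fold change of 1.98 ± 0.23.

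Ly6e was the most abundant member and its diet groups overlapped. Ly6e had 1868, 1825, 2182, 2009 and 1989 CPM in HFD tumours 1 to 5, against 1770, 1995, 2177, 1917 and 1151 CPM in LFD tumours 1 to 5. LFD tumour 5 was the lowest of the 10 libraries and the rest lay close together. The means were 1974 ± 140 CPM in HFD and 1802 ± 392 CPM in LFD tumours (SD, n = 5 each), a fitted log2 difference of 0.13 ± 0.16 (SE), smaller than its error.

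**Figure D1:**
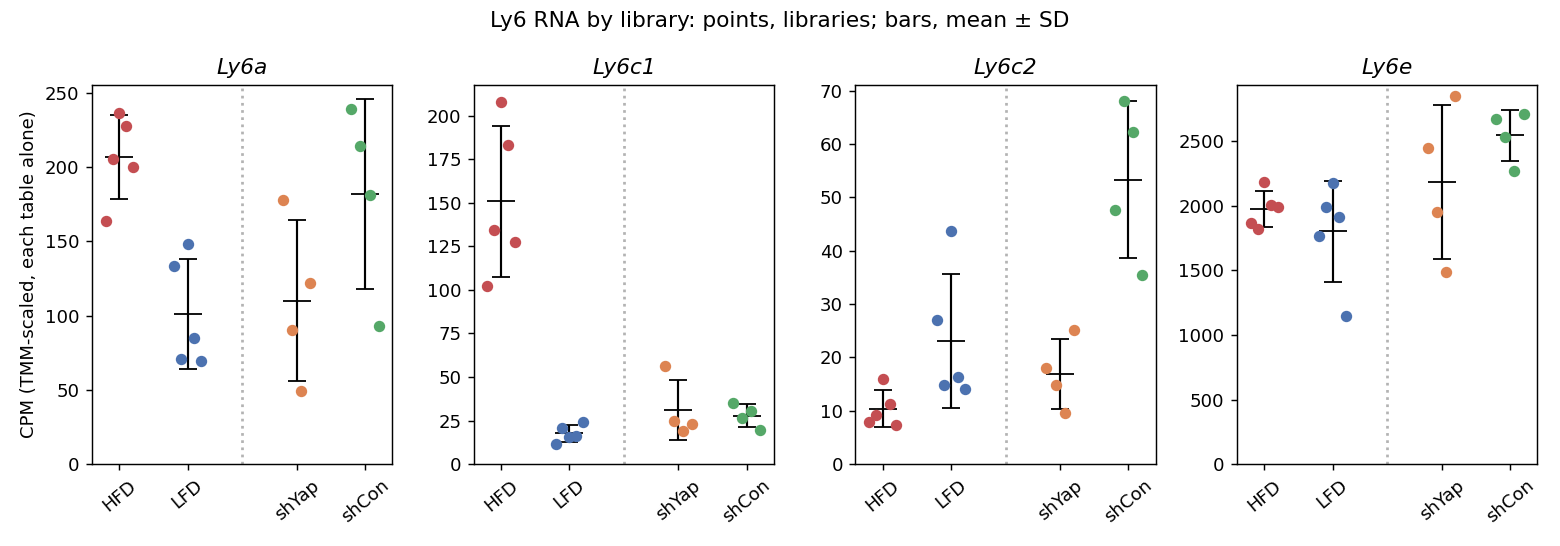
CPM of each member (vertical axis, scaled within each table, linear) in every HFD, LFD, shYap and shCon library, with bars for the mean ± SD; the dotted line separates the tables. Ly6c1 sits at 102 to 208 CPM in HFD tumours and at 11.6 to 24.1 CPM in LFD tumours, and Ly6c2 at 9.59 to 25.1 CPM in libraries labelled shYap and 35.4 to 68.0 CPM in shCon libraries.

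In the hairpin comparison, Ly6c2 was the member that differed most. Ly6c2 had 17.9, 14.8, 9.59 and 25.1 CPM in the libraries labelled shYap 1 to 4, against 47.6, 68.0, 62.2 and 35.4 CPM in shCon 1 to 4. Each library labelled shYap was below each shCon library. The means were 16.9 ± 6.50 CPM in shYap and 53.3 ± 14.7 CPM in shCon libraries (SD, n = 4 each). The log2 fold change was -1.66 ± 0.31 (SE), with a 95% interval of -2.26 to -1.06. By edgeR's quasi-likelihood test this had an unadjusted p of 0.000354, rank 36 of 16571 genes, and an adjusted p of 0.153, which does not pass 0.05. Without shCon replicate 4 the log2 fold change was -1.81 and the adjusted p 0.0464. DESeq2 gave -1.65 with an adjusted p of 0.000145.

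Those calls stand against a low background by edgeR. No gene of 16571 passed at an adjusted p under 0.05 (0%), while 1804 genes (10.9%) had an unadjusted p under 0.05. DESeq2 called 408 genes and limma voom 0. Leaving out shCon replicate 4 gave 94 calls by edgeR, and leaving out shYap replicate 4 gave 1. Groups without overlap in CPM were found for 6.57% of genes, for 2.61% with the libraries labelled shYap higher and for 3.96% with them lower. Ly6c2 was the only member without overlap here, 1 of 4.

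Ly6a was lower on average, but the groups overlapped. Ly6a had 178, 90.4, 49.3 and 122 CPM in the libraries labelled shYap 1 to 4, against 239, 214, 181 and 93.0 CPM in shCon 1 to 4. ShCon replicate 4 lay within the range of the libraries labelled shYap. The means were 110 ± 54.2 CPM in shYap and 182 ± 63.7 CPM in shCon libraries (SD, n = 4 each). The log2 fold change was -0.73 ± 0.40 (SE), interval -1.51 to 0.06, with an edgeR adjusted p of 0.581.

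Ly6c1, so different between the diets, showed no difference past its error between the hairpins. Ly6c1 had 56.6, 24.8, 19.2 and 23.1 CPM in the libraries labelled shYap 1 to 4, against 35.0, 26.4, 30.3 and 19.8 CPM in shCon 1 to 4. Replicate 1 of shYap was the highest of the 8 libraries, and the other 3 lay among or below the shCon libraries. The means were 30.9 ± 17.3 CPM in shYap and 27.9 ± 6.43 CPM in shCon libraries (SD, n = 4 each). The log2 fold change was 0.15 ± 0.34 (SE), interval -0.52 to 0.82, with an edgeR adjusted p of 0.923. Its sign depended on shYap replicate 1, without which it was -0.32. Both hairpin groups came from mice on the high-fat diet. Their Ly6c1 levels, scaled separately, all lay below the HFD range of 102 to 208 CPM.

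Ly6e again differed little. Ly6e had 2449, 1952, 1487 and 2852 CPM in the libraries labelled shYap 1 to 4, against 2671, 2533, 2273 and 2712 CPM in shCon 1 to 4. The libraries labelled shYap held both the lowest and the highest value. The means were 2185 ± 593 CPM in shYap and 2547 ± 198 CPM in shCon libraries (SD, n = 4 each). The log2 fold change was -0.22 ± 0.20 (SE), interval -0.62 to 0.18, with an edgeR adjusted p of 0.768.

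**Figure D2:**
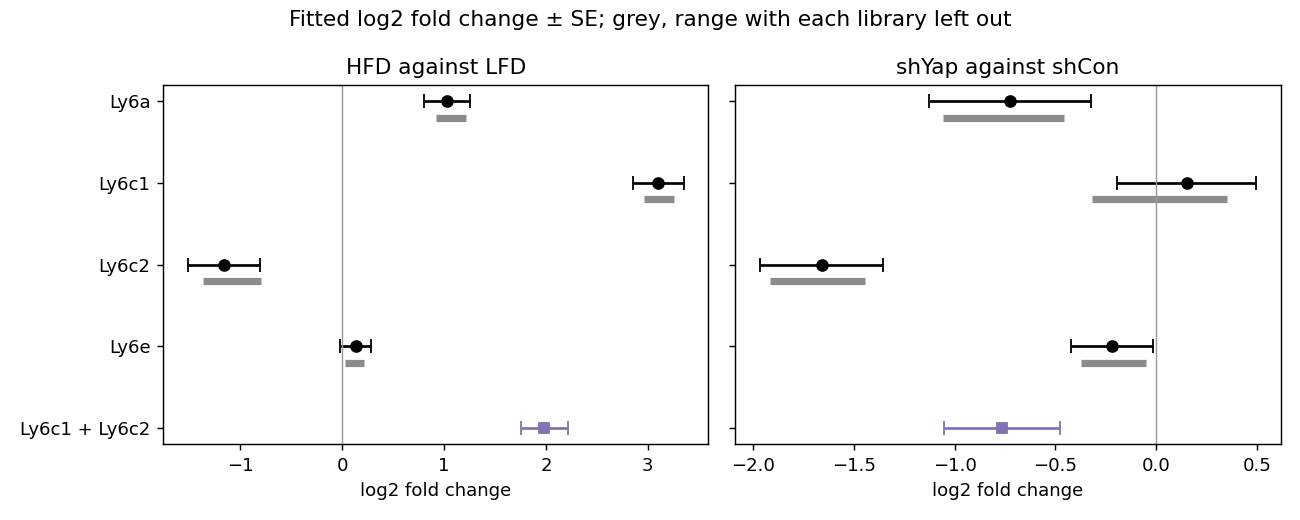
Fitted log2 fold change (horizontal axis, its own range in each panel) of each member and of Ly6c1 and Ly6c2 summed, HFD against LFD on the left and shYap against shCon on the right. Points show the fit with its SE and grey bars the range when each library is left out in turn; between the diets Ly6c1 (3.10) and Ly6c2 (-1.16) lie on opposite sides of 0, and their sum lies at 1.98.

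The division between the Ly6c genes separated the HFD and LFD tumours. Ly6c1 made up 92.8%, 93.5%, 92.8%, 94.3% and 94.5% of the Ly6c1 and Ly6c2 estimated counts in HFD tumours 1 to 5, against 30.1%, 58.2%, 26.3%, 49.9% and 63.0% in LFD tumours 1 to 5. The HFD tumours lay within a few percentage points of each other and the LFD tumours were widely spread, with no overlap between them. The mean share was 93.6% ± 0.811 in HFD and 45.5% ± 16.5 in LFD tumours (SD, n = 5 each). The summed level was 109.9 to 224 CPM in HFD and 32.4 to 59.1 CPM in LFD tumours, again without overlap.

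The share also separated the hairpin groups. Ly6c1 made up 75.9%, 62.6%, 66.7% and 47.9% of the pool in the libraries labelled shYap 1 to 4, against 42.4%, 27.98%, 32.7% and 35.9% in shCon 1 to 4. Every library labelled shYap had a larger Ly6c1 share than every shCon library. The shares averaged 63.3% ± 11.7 in shYap and 34.7% ± 6.04 in shCon libraries (SD, n = 4 each). The shCon tumours also came from mice on the high-fat diet, yet their shares lay within the LFD range of 26.3% to 63.0%. Every shCon share was below every HFD share, and what sets these groups apart was not tested. The summed level was 28.8 to 74.5 CPM in shYap and 55.2 to 94.3 CPM in shCon libraries, and these ranges overlapped. As 1 gene, the pair had a log2 fold change of -0.76 ± 0.29 and an edgeR adjusted p of 0.379. With Ly6a added to the sum, the log2 fold change was -0.74 ± 0.36 for shYap against shCon (edgeR adjusted p = 0.522) and 1.37 ± 0.22 for HFD against LFD.

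**Figure D3:**
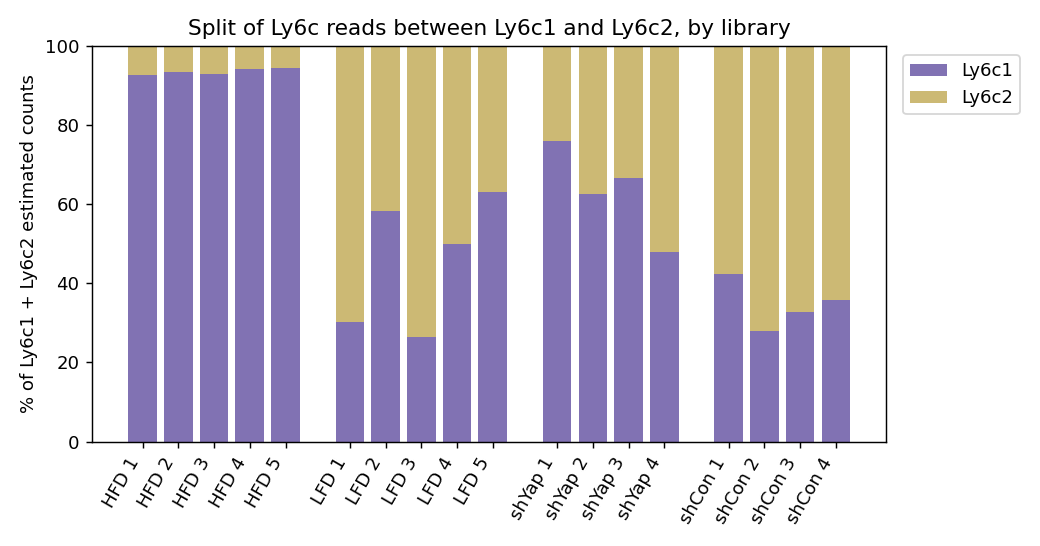
Share of the summed Ly6c1 and Ly6c2 estimated counts given to each gene (vertical axis, percent) in every library, HFD and LFD on the left, shYap and shCon on the right. Ly6c1 takes 92.8% to 94.5% in HFD tumours, 26.3% to 63.0% in LFD tumours and 27.98% to 42.4% in shCon tumours, also of the high-fat diet.

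Levels can be set between genes only per length. Divided by the length of the reference transcript, Ly6e led in every group, at 866 ± 61.4 CPM per kb in HFD, 790.0 ± 172 in LFD, 958 ± 260.1 in shYap and 1117 ± 86.9 in shCon libraries (SD). Ly6a came next, at 252 ± 34.5 CPM per kb in HFD, 124 ± 45.1 in LFD, 134 ± 66.2 in shYap and 222 ± 77.8 in shCon libraries. The order of the Ly6c genes changed between groups. Ly6c1 per kb was above Ly6c2 in HFD (179 ± 51.4 and 12.6 ± 4.24 CPM per kb) and in shYap libraries (36.6 ± 20.5 and 20.5 ± 7.91), and below it in LFD (20.8 ± 5.72 and 28.1 ± 15.3) and in shCon libraries (33.0 ± 7.62 and 64.8 ± 17.9). Neighbours in this order whose libraries overlapped were Ly6a and Ly6c1 in HFD, Ly6c2 and Ly6c1 in LFD, and Ly6a, Ly6c1 and Ly6c2 in shYap libraries.

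Members also differed in how evenly they were expressed within a group. Ly6e had the smallest coefficient of variation in HFD (7.09%) and LFD (21.8%) tumours and in shYap (27.2%) and shCon (7.78%) libraries. Ly6c2 had the largest in LFD tumours, 54.3%, and Ly6c1 the largest in libraries labelled shYap, 55.9%. The Ly6c1 and Ly6c2 sum varied by 28.9% in HFD, 26.0% in LFD, 40.9% in shYap and 22.3% in shCon libraries.

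Across the 18 libraries, with each taken as a deviation from its own group mean on the log2 CPM scale, some members varied together. These correlations are descriptions: the points share tables, depth and tumour make-up. Ly6a and Ly6c2 had a Pearson r of 0.79 (0.91 over the 10 HFD and LFD libraries and 0.78 over the 8 shYap and shCon libraries). Ly6e had an r of 0.56 with Ly6a and 0.58 with Ly6c2. Over the 18 libraries Ly6c1 had lower r values, 0.43 with Ly6a, 0.16 with Ly6c2 and 0.09 with Ly6e, but the tables differed. Over HFD and LFD libraries its r was -0.28 with Ly6a, -0.03 with Ly6c2 and -0.20 with Ly6e. Over shYap and shCon libraries it was 0.83 with Ly6a, 0.38 with Ly6c2 and 0.35 with Ly6e. The summed Ly6c1 and Ly6c2 level had an r of 0.84 with Ly6a and 0.45 with Ly6e. The sum holds Ly6c2, so these values do not show how Ly6c1 itself relates to the other members.

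The genes whose within-group deviations were most like each member were sought among 11060 genes of at least 5 CPM on average, by Pearson r over the 18 libraries. For Ly6a they were Psmb10, an immunoproteasome subunit (r = 0.94), Psme2b (0.93), Zbp1, a sensor of nucleic acids (0.91), Trim12c (0.90) and Psme2, a proteasome activator subunit (0.90). For Ly6c2 they included Trim12c (0.87), Parp10, an ADP-ribosyltransferase (0.86), Psme1 (0.86) and Zbp1 (0.85). Trim12c and Zbp1 stood in both lists.

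For Ly6c1 the nearest genes were Bod1, a chromosome segregation protein (0.87), Gpc1, a GPI-anchored proteoglycan (0.84), Cd9, a tetraspanin (0.81), Thumpd3 (0.80) and Ptp4a2, a phosphatase (0.80). For Ly6e they were Rac2, a small GTPase of blood cells (0.94), Jpt1 (0.92), Klhl18 (0.92), Tpgs2 (0.91) and Timm22, of mitochondrial protein import (0.91). For each member, the 2 libraries farthest from their own group mean were then left out. This lowered the r values to 0.84 to 0.90 for Ly6a, 0.77 to 0.86 for Ly6c2, 0.65 to 0.78 for Ly6c1 and 0.76 to 0.85 for Ly6e.

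Because Ly6a and Ly6e are known interferon-induced genes, the members were set beside a list of 22 interferon-stimulated genes that holds none of them. The mean deviation of the list had a Pearson r of 0.89 with Ly6a (Spearman 0.92), 0.84 with Ly6c2 (0.85), 0.67 with Ly6e (0.60) and 0.11 with Ly6c1 (0.11) over the 18 libraries. Without the 2 libraries in which the member lay farthest from its group mean, r was 0.85 for Ly6a, 0.76 for Ly6c2, 0.45 for Ly6e and 0.05 for Ly6c1. The low r of Ly6c1 pools unlike groups: in every LFD tumour Ly6c1 and the list deviated to opposite sides. LFD tumour 5 was at 0.49 for Ly6c1 and -0.55 for the list, whereas shCon replicate 4 was at -0.46 and -0.51. The libraries share depth and tumour make-up here too. With a list of 8 T cell markers, r was 0.55 for Ly6a, 0.68 for Ly6c2, 0.47 for Ly6e and -0.07 for Ly6c1. Some other lists ran against Ly6a and Ly6c1: r was -0.65 for Ly6a and -0.54 for Ly6c1 with 8 neutrophil markers, and -0.58 and -0.53 with 10 monocyte markers. With 8 fibroblast markers r was 0.13 for Ly6a and -0.56 for Ly6c1. For Ly6c2 r was -0.42 with the neutrophil, -0.29 with the monocyte and 0.40 with the fibroblast markers. For Ly6e these were -0.35, -0.07 and 0.06. With 10 endothelial markers r was 0.26 for Ly6a, -0.12 for Ly6c1, 0.25 for Ly6c2 and -0.38 for Ly6e. Among the hepatocyte, B cell, epithelial and adventitial fibroblast lists the strongest r was -0.38, of Ly6c1 with the epithelial markers. The Ly6c1 and Ly6c2 sum, a measure added after seeing the data, had an r of 0.66 with the interferon-stimulated genes, 0.44 with T cell markers, -0.59 with neutrophil markers and -0.53 with monocyte markers.

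**Figure D4:**
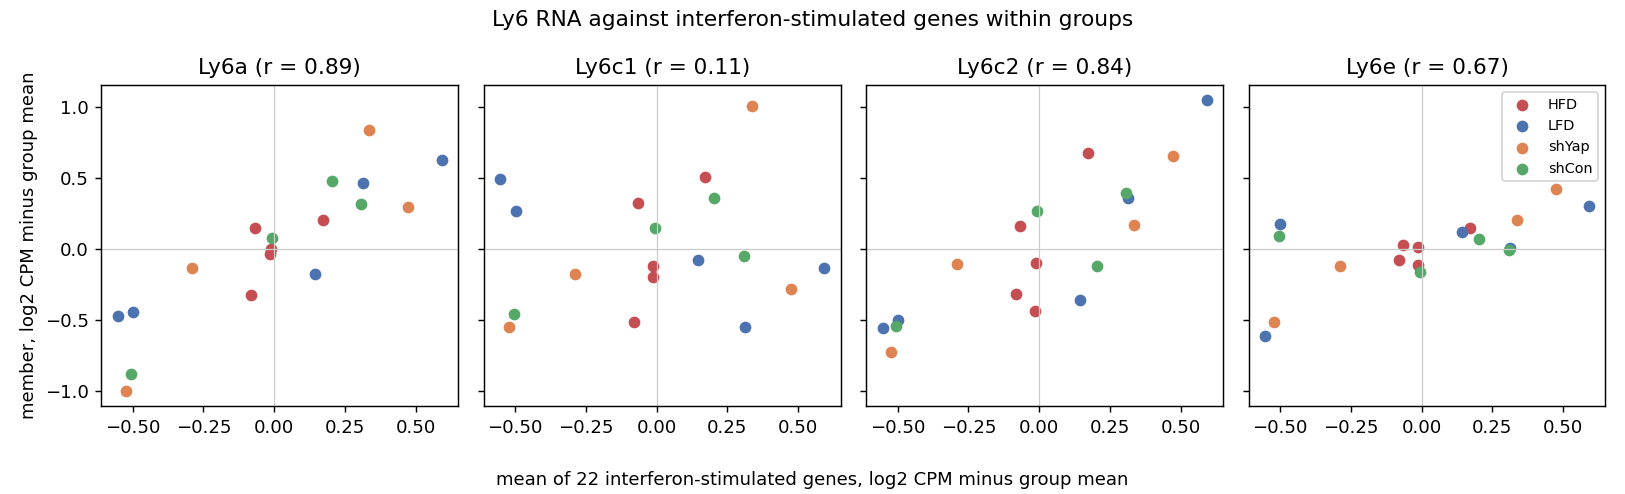
Deviation of each member from its group mean (vertical axis, log2 CPM) against the mean deviation of 22 interferon-stimulated genes (horizontal axis, log2 CPM), one point per library, coloured by group, with Pearson r over the 18 libraries. Over the pooled groups Ly6a (0.89) and Ly6c2 (0.84) lie along a rising line, and Ly6c1 (0.11) is scattered, with opposite deviations in the LFD tumours.

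Between the diets, none of these interferon-stimulated genes rose. Over all genes tested between HFD and LFD tumours, 41.1% were called by edgeR at an adjusted p under 0.05, 19.4% higher and 21.6% lower in HFD, and the median log2 fold change was -0.0018. Of the 22 interferon-stimulated genes, 0 rose and 5 fell, and their median log2 fold change was -0.38. Those that fell were Gbp4 (-2.07), Ifi47 (-1.11), Irf7 (-0.81), Gbp3 (-0.75) and Mx2 (-0.58), guanylate-binding proteins, an immunity-related GTPase, a transcription factor and an antiviral GTPase among them. Of 12 interferon signalling genes, 0 rose and 4 fell, with a median of -0.03: the receptor chain Ifnar2 (-0.63) and the transcription factors Stat2 (-0.60), Irf1 (-0.59) and Irf9 (-0.58).

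Between the hairpins, no gene of these lists passed the test. The 22 interferon-stimulated genes had a median log2 fold change of -0.97, against 0.027 over all genes, and a summed level of 683 to 1370 CPM in shYap and 1313 to 2214 CPM in shCon libraries. Irf7 averaged 115 ± 55.6 CPM in shYap and 248 ± 58.7 CPM in shCon libraries (SD, n = 4 each; edgeR adjusted p = 0.293). The 12 signalling genes had a median of -0.16.

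The other genes of the cluster and family were mostly low. Of 17 further genes listed for the Ly6 cluster, 9 were in the HFD and LFD table and 5 passed the filter on low counts, of which 0 rose and 1 fell. That gene was Ly6g2, at 1.52 ± 1.47 CPM in HFD and 43.2 ± 33.5 CPM in LFD tumours (SD, n = 5 each; log2 fold change -4.82 ± 0.84, edgeR adjusted p = 0.00213). In the other table Ly6g2 averaged 22.4 ± 12.4 CPM in shYap and 18.3 ± 7.68 CPM in shCon libraries (SD, n = 4 each; edgeR adjusted p = 0.898). Ly6g, the neutrophil antigen recognised by the Ly6G antibody, stayed below 1 CPM in all libraries, the highest being 0.976 CPM.

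Gpihbp1, which carries lipoprotein lipase to the capillary surface, averaged 6.18 ± 1.964 CPM in HFD and 9.02 ± 5.05 CPM in LFD tumours (SD, n = 5 each; edgeR adjusted p = 0.297). It averaged 23.8 ± 11.0 CPM in shYap and 14.6 ± 1.72 CPM in shCon libraries (SD, n = 4 each; edgeR adjusted p = 0.426). Ly6i, close to Ly6a in the cluster, was tested only in the hairpin table, where its log2 fold change was -1.46 ± 0.53 (edgeR adjusted p = 0.360). Elsewhere in the genome, 3 genes of the Ly6 and urokinase receptor family were tested between the diets, of which 1 rose and 1 fell.

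Plaur, the urokinase receptor, rose to 35.1 ± 4.25 CPM in HFD tumours, against 19.9 ± 5.70 CPM in LFD tumours (SD, n = 5 each; log2 fold change 0.82 ± 0.18, edgeR adjusted p = 0.00565). Cd59a, an inhibitor of complement lysis, fell to 5.37 ± 2.11 CPM in HFD tumours, against 35.6 ± 26.0 CPM in LFD tumours (SD, n = 5 each; log2 fold change -2.72 ± 0.52, edgeR adjusted p = 0.00305). Neither passed between the hairpins, with log2 fold changes of 0.46 for Plaur and 0.27 for Cd59a.

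Genes that build and attach the GPI anchor were called about as often as any. Of 28 genes tested between HFD and LFD tumours, 7 rose and 3 fell, beside the 41.1% of all genes called, with a median log2 fold change of 0.01, near that of all genes. The transamidase subunit Pigt rose to 155 ± 16.4 CPM in HFD tumours, against 109 ± 10.9 CPM in LFD tumours (SD, n = 5 each; log2 fold change 0.51 ± 0.10). Gpaa1, of the same complex, rose by a log2 fold change of 0.52, and Piga, of the first step of anchor synthesis, by 0.65, while Pgap2, which remodels the anchor, fell by 0.44 on the log2 scale. Between the hairpins 0 of 28 were called, with a median of -0.08.

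Markers of cells that could carry Ly6 antigens are given here beside the background between the diets, where 19.4% of all genes rose and 21.6% fell. All 8 T cell markers tested fell in HFD tumours, with a summed level of 11.4 to 39.8 CPM in HFD and 24.7 to 109.9 CPM in LFD tumours, and all 4 B cell markers fell. Of 8 fibroblast markers 4 rose and 0 fell, with a summed level of 6373 to 8479 CPM in HFD and 2906 to 5485 CPM in LFD tumours. Of 8 adventitial fibroblast markers, a Ly6a-bearing stroma in mice, 2 rose and 2 fell. Cd34 rose to 347 ± 21.4 CPM in HFD tumours, against 133 ± 12.4 CPM in LFD tumours, and Pi16 to 15.3 ± 4.87 CPM in HFD tumours, against 1.68 ± 1.03 CPM in LFD tumours (SD, n = 5 each). Dpp4 fell to 4.72 ± 2.50 CPM in HFD tumours, against 53.0 ± 48.1 CPM in LFD tumours (SD, n = 5 each).

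Markers of the classic Ly6C-bearing cells overlapped in sum. Of 10 endothelial markers 0 rose and 1 fell, at 134 to 174 CPM in HFD and 104 to 230.4 CPM in LFD tumours. Of 10 monocyte markers 1 rose and 3 fell, at 1312 to 1654 CPM in HFD and 805 to 1806 CPM in LFD tumours, and the monocyte chemokine receptor Ccr2 averaged 72.9 ± 16.6 CPM in HFD and 95.5 ± 47.5 CPM in LFD tumours (SD, n = 5 each; edgeR adjusted p = 0.357). Of 8 neutrophil markers 0 rose and 3 fell, at 150.4 to 384 CPM in HFD and 145 to 298 CPM in LFD tumours. Most of that sum was Mmp9 (224 ± 97.0 CPM in HFD and 155 ± 53.8 CPM in LFD tumours, SD, n = 5 each), while the markers that fell were the granule gene Ngp (-7.04 on the log2 scale), S100a8 (-3.16) and S100a9 (-3.09). Of 8 hepatocyte markers 0 rose and 7 fell. Of 5 epithelial markers 0 rose and 1 fell, at 188 to 359 CPM in HFD and 54.3 to 543 CPM in LFD tumours. The colon keratin Krt20 was at 0 to 0.489 CPM in HFD libraries and at 0 in all LFD libraries, too low to be tested. The part of these cells in the Ly6 differences was not tested.

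Between the hairpins no marker passed the test, but T cell markers did not overlap in sum, at 15.1 to 26.4 CPM in shYap and 36.2 to 84.3 CPM in shCon libraries, with a median log2 fold change of -1.93. Monocyte markers summed to 970.4 to 2464 CPM in shYap and 1275 to 1347 CPM in shCon libraries. Their median log2 fold change was 0.08, and single markers lay on both sides of it: Ccr2 had -0.99, Ms4a4c -1.41, Chil3 1.79 and Cd14 1.21. Endothelial markers summed to 173 to 250.7 CPM in shYap and 182 to 244 CPM in shCon libraries, and fibroblast markers to 2696 to 5299 CPM in shYap and 4931 to 5618 CPM in shCon libraries. Their part in the lower Ly6c2 of the libraries labelled shYap was not tested.

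In the upstream windows that were aligned, the Ly6c genes were less alike than within their coding sequence. RefSeq (GRCm38.p6) gave 2 windows of 250 bases before a start for each gene, and only the first of each was aligned. Bases -219 to -1 of Ly6c1 aligned with bases -250 to -26 of Ly6c2 at 71.9% identity. There were 164 identical bases, 52 differing bases and 12 gap bases. The motif search took in all of these windows. Both strands were searched for the GAS motif TTCNNNGAA, the interferon response core (GAAA and another GAAA with any 2 bases between), CCAAT and TATAAA, which do not overlap one another in these windows. The first 2 were in no window of either gene and occur in 7.02% and 2.98% of 32851 promoters. CCAAT (33.8% of promoters) and TATAAA (12.4%) each occurred once in a Ly6c1 window, at -95 and -143, and in no Ly6c2 window. These are letter matches in a short window and say nothing of binding.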

How the data were processed

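RNA from 18 liver metastases was measured by RNA sequencing. The authors deposited 2 tables of estimated counts per gene, whose names, per the labels, point to Partek's expectation-maximisation quantification, which divides a read that fits several genes among them. STAR 2.7.3a, Partek, DESeq2, GRCm38 and mm10 are named, per the submitters' processing notes, with no role or order; annotation and strand are not given in the sources used here. Of the values, 60.4% (HFD and LFD) and 63.0% (shYap and shCon) were whole within 0.0005. Replicates 3 and 4 of shYap are numbered 4 and 5 in the deposited table.

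Counts were rounded and each table fitted alone with edgeR 4.0.16 (R 4.3.3): TMM scaling, filterByExpr, robust quasi-likelihood test, Benjamini-Hochberg adjustment over all genes tested, threshold 0.05. Fold changes are tested over control. DESeq2 1.42.0 and limma 3.58.1 (voom) were alternatives, with other scalings, filters, left-out libraries, a replicate block, the closest HFD libraries summed, and Ly6 genes summed. Log2 CPM used a prior count of 2. Intervals of 95% are normal, from the fitted SE. Sequences are from GENCODE M21; upstream windows are from RefSeq, which matched Ly6c1 and Ly6c2.

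The members and 14 gene lists were chosen with earlier results of these data known. Genes named were the members, the 5 most like each member, and genes of the lists. The result of 1 gene is not reported here. Cd34, Pi16, Dpp4, Ccr2, Ms4a4c, Chil3, Cd14, Mmp9, Ngp, S100a8, S100a9, Gpaa1, Piga, Pgap2 and Krt20 were singled out from their lists after their values were seen.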

Additional observations from a re-analysis of the deposited data

Results flagged for a closer look

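Ly6c1 in shYap replicate 1, at 56.6 CPM, lay far from the other libraries labelled shYap, which were at 19.2 to 24.8 CPM, by Dixon's criterion at 95%. Of 20 sets of libraries checked, this was the 1 that passed, and chance gives about 1 in 20. The same library had the largest Ly6c1 share of its group, 75.9%.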

How the results depend on the processing

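Leaving out each library gave log2 fold changes, HFD against LFD, of 0.92 to 1.21 for Ly6a, 2.96 to 3.26 for Ly6c1, -1.37 to -0.79 for Ly6c2 and 0.03 to 0.22 for Ly6e, with 5523 to 7253 genes called. For shYap against shCon it gave -1.06 to -0.46 for Ly6a, -0.32 to 0.35 for Ly6c1 (below 0 without shYap replicate 1), -1.91 to -1.44 for Ly6c2 and -0.37 to -0.05 for Ly6e, with 0 to 94 genes called (94 without shCon replicate 4, 1 without shYap replicate 4). Without shCon replicate 4 Ly6c2 was -1.81. Summing Ly6c1 and Ly6c2 gave 1.98 between the diets, which lowers Ly6c1 and turns Ly6c2 round, and -0.76 between the hairpins, which turns Ly6c1 round; adding Ly6a gave 1.37 and -0.74. By the estimated division, the Ly6c1 and Ly6c2 sum is mostly Ly6c1 in HFD tumours (92.8% to 94.5%). Summing the closest HFD libraries gave 4233 calls between the diets, with fewer samples fitted. DESeq2 called 408 genes between the hairpins, and Ly6c2 among them (-1.65, adjusted p = 0.000145); the cause was not tested. Scaling by library totals alone gave 1.27, 3.36, -0.93 and 0.34 for Ly6a, Ly6c1, Ly6c2 and Ly6e between the diets. With the replicate number as a block, Ly6c2 was -1.70 (edgeR adjusted p = 0.289) between the hairpins, with 0 genes called, and 4929 genes were called between the diets. The block gave Ly6c2 -1.07 between the diets with an SE of 0.21, against 0.35 without it. Same-numbered libraries showed no steady likeness (r of -0.50 to 0.31 for HFD and LFD, -0.05 to 0.18 for shYap and shCon). With so few libraries this cannot exclude a pairing by number. With 4 libraries in each hairpin group, the intervals of Ly6a, Ly6c1 and Ly6e included 0. Summing also moved the correlations: within groups the Ly6c1 and Ly6c2 sum, added after seeing the data, had an r of 0.66 with the interferon-stimulated genes, against 0.11 for Ly6c1 alone and 0.84 for Ly6c2 alone.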
